A study of Homo sapiens with 6 samples.

Results

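The cytosolic ribosomal protein genes encode the proteins that, with ribosomal RNA, make up the large and the small subunit of the ribosome. They were chosen by symbol, as RPL or RPS followed by a number with at most 1 closing letter, plus RPSA and the stalk proteins RPLP0, RPLP1 and RPLP2. This gave 81 of the 60605 genes in the table, 49 of the large and 32 of the small subunit. The cells were SW620, an established human colorectal cancer line, and RNA was sequenced from 3 libraries of ELAPOR1 cells and 3 libraries of vector cells. Both groups had been infected with lentivirus made in HEK293T cells from the pLVX-IRES-Puro plasmid, at a multiplicity of 20, and selected with 2 ug/ml puromycin. Both were grown in medium with 10% serum, and each library came from 1 ug of total RNA after poly(A) selection. ELAPOR1 cells carried the plasmid with an ELAPOR1 insert, whereas vector cells carried it empty. The labels describe stably infected cells and name no clone, and they do not say whether the numbered libraries came from separate cultures. The p-values below thus reflect how far numbered libraries of a group lie apart, a spread that could be technical alone.

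The ribosome reads mRNA on its small subunit and joins amino acids on its large subunit, and each ribosome holds 1 copy of most of its proteins, so their genes are expressed together at high levels in growing cells. In vertebrates most of these mRNAs begin with a terminal oligopyrimidine (TOP) tract, a C followed by further C or T (U in RNA) bases, through which the kinase mTOR and the RNA-binding protein LARP1 control their translation and stability. Poly(A) RNA measures the mRNA and not its translation, and in bulk RNA fewer cells of a kind and less RNA per cell cannot be told apart.

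The starts of 9 members whose mRNA differed between the groups are shown because they display how a TOP tract looks at an annotated start, and starts annotated without one. Each is 30 bases of RefSeq (GRCh38.p14) on the gene's own strand, 10 before RefSeq's annotated start and 20 from it, with capitals for the longest run of at least 5 C or T bases that is led by a C and begins within 10 bases of the start. The first 4 belong to genes that were higher in ELAPOR1 cells.
RPL7A: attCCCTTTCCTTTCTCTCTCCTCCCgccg
RPLP1: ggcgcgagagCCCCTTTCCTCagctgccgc
RPS12: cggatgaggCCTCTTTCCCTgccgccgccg
RPS3: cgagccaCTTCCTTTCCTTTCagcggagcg
The next 3 belong to genes that were lower in ELAPOR1 cells.
RPL24: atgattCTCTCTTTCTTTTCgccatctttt
RPS25: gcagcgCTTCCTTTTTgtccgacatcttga
RPS9: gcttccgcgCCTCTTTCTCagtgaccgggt
The last 2 have no such run at RefSeq's start, RPS15 among the higher genes and RPL17 among the lower.
RPS15: aggcgcggaccaaagcgatCTCTTCTgagg
RPL17: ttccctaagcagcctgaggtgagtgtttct

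The windows lie at chr9:133348208-133348237 (plus strand) for RPL7A, chr15:69452808-69452837 (plus) for RPLP1, chr6:132814559-132814588 (plus) for RPS12 and chr11:75399508-75399537 (plus) for RPS3. Those of the lower genes lie at chr3:101686699-101686728 (minus) for RPL24, chr11:119018324-119018353 (minus) for RPS25 and chr19:54200848-54200877 (plus) for RPS9. Those without a run at the start lie at chr19:1438386-1438415 (plus) for RPS15 and chr18:49492446-49492475 (minus) for RPL17. RefSeq start windows matched 63 of the 78 tested members. RefSeq's start lay within 10 bases of the gene start in the deposited table for 30 of them, further inside the gene for 31, among them RPS15, RPL17, RPS9 and RPS25, and before the gene for 2, RPL13 and RPL15. Where the starts differ, the window need not be the start of the mRNA in these cells. A C at the annotated start, followed without a break by at least 4 more C or T bases, stood in 66.7% of them, against 4.04% of all 27305 RefSeq promoters of the same length. A run of that kind beginning within 10 bases of the start stood in 87.3% of members and 33.3% of all promoters, and a run of at least 8 bases in 71.4% of members and 9.08% of all promoters. TCT across the start occurred in 20.6% of members and 2.20% of all promoters. In the whole 300-base promoter, on either strand, CCGGAA was found in 54.0% of members and 17.6% of all promoters, AAGATGGC in 9.52% and 3.03%, TATAAA in 7.94% and 12.0%, and CACGTG in 4.76% and 7.43%. The run at the start was present in genes of both directions, 9 of 12 matched higher members and 3 of 5 matched lower members, beside 30 of 46 that passed no threshold. These matches describe letters in annotated windows and not sites of binding or control.

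ELAPOR1 itself averaged 21126 ± 362 CPM (counts relative to library size, scaled with TMM factors) in ELAPOR1 cells and 10.4 ± 1.47 CPM in vector cells (SD, n = 3 each). The libraries held 16401813 to 20571924 counts, the smallest and the largest both of vector cells. As a check of the cell line, 12 colon epithelial markers summed to 7855 to 7869 CPM in ELAPOR1 libraries and 8439 to 8833 CPM in vector libraries. KRT8, KRT18, KRT19, EPCAM and VIL1 carried most of it, and CDX1 stood at or near 0 counts in all libraries. In ELAPOR1 cells 5 of 11 tested markers were lower, KRT8 (log2 fold change -0.14), KRT19 (-0.45), CDX2 (-0.56), CDH1 (-0.76) and KRT20 (-1.67), and CDH17 was higher (1.05). Markers of other cells were scarce: 6 fibroblast genes summed to 24.9 to 30.1 CPM in ELAPOR1 libraries and 17.4 to 18.8 CPM in vector libraries, with LUM the 1 of 3 tested that was higher. Immune genes summed to at most 7.81 and 7.61 CPM, endothelial genes to at most 2.81 and 2.73 CPM, and kidney or neuronal genes to at most 13.9 and 14.7 CPM in ELAPOR1 and vector libraries. None of these was called by edgeR or DESeq2, and none had an unadjusted p under 0.05. The erythroid genes HBA1 and HBB had no count in any library. The part of these markers in the results below was not tested.

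As a family, the ribosomal protein mRNAs took nearly the same share of the library in both groups. All 81 genes together made up 5.62%, 5.59% and 5.68% of counts in ELAPOR1 cells and 5.45%, 5.73% and 5.63% in vector cells. The groups overlapped, with vector library 1 the lowest of the 6 and vector library 2 the highest. The difference in the mean share, ELAPOR1 minus vector, was 0.024 percentage points, smaller than the SD of 0.14 between the vector libraries. ELAPOR1's own transcripts took 2.12%, 2.10% and 2.06% of counts in ELAPOR1 cells, and over the counts of all other genes the difference in share was 0.14 percentage points. On the TMM scale, which is set by the bulk of genes, the family summed to 56867, 56210 and 57308 CPM in ELAPOR1 cells and 54055, 57044 and 56016 CPM in vector cells, again with overlap.

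The balance between the subunits differed slightly. The summed counts of the large subunit genes were 1.318, 1.314 and 1.312 times those of the small subunit genes in ELAPOR1 cells, and 1.325, 1.329 and 1.334 times in vector cells. The groups did not overlap, and the mean ratio was 1.315 ± 0.0031 in ELAPOR1 cells and 1.329 ± 0.0049 in vector cells (SD, n = 3 each), 0.989 times as large in ELAPOR1 cells. With 3 libraries against 3 no exact permutation test can go below p = 0.1, so the shift is given as a description. The large subunit share was 3.20 ± 0.025% in ELAPOR1 cells and 3.20 ± 0.083% in vector cells. The small subunit share was 2.43 ± 0.022% in ELAPOR1 cells and 2.41 ± 0.057% in vector cells, and there too the groups overlapped.

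**Figure D1:**
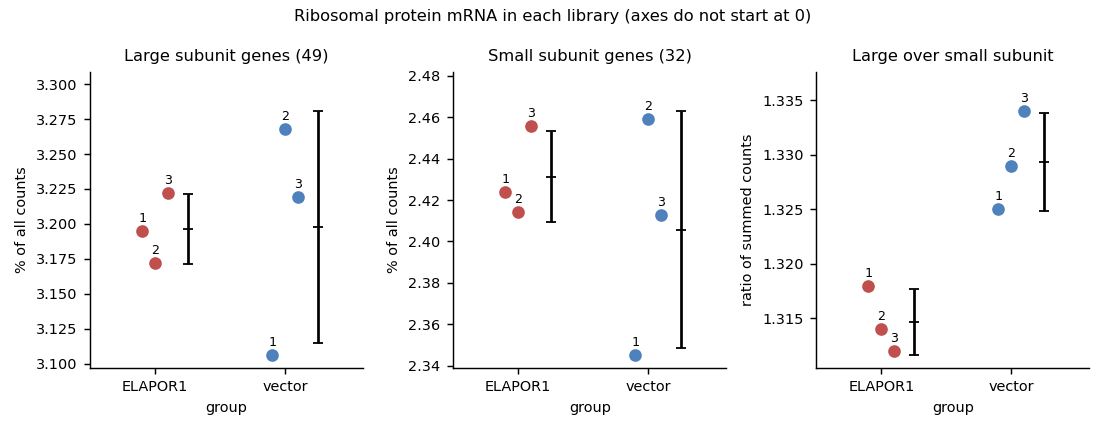
Summed counts of the 49 large and 32 small subunit genes as a percent of all counts, and the ratio of the 2 sums, in each library (numbered points; bars show mean and SD over 3 libraries; axes do not start at 0). Shares overlap between ELAPOR1 and vector cells, whereas the ratio is 1.312 to 1.318 in ELAPOR1 cells and 1.325 to 1.334 in vector cells.

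Individual members moved in both directions, by small amounts. Of the 78 members that passed the filter on low counts, 16 were higher and 5 lower in ELAPOR1 cells by edgeR's quasi-likelihood test with Benjamini-Hochberg adjustment over all genes. This is 26.9% of the members, where 21.4% of all 16003 tested genes were called. The 20.5% of members called higher stand beside 10.0% of all genes, and the 6.41% called lower beside 11.4%. Most members have high counts, and among the 4649 other genes with at least 50 mean CPM the share called was 36.0%, above that of the members. The split varied with the scaling and with the libraries kept: with library sizes alone 11 members were higher and 8 lower, and without vector library 1 there were 10 of each. Without ELAPOR1 library 3 the split was 8 higher and 5 lower, and without ELAPOR1 library 2 it was 17 higher and 3 lower. Tests on log2(FPKM + 1), which divides by the whole library total, called 4 higher and 5 lower. These also used another test and filter, and called 14.3% of all genes tested.

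The median size of the change was smaller than that of other genes of at least 50 CPM. That set was not matched to the members in level, and the part of count level in the difference was not tested. The median log2 fold change, ELAPOR1 over vector, was 0.015 for members (quartiles -0.019 and 0.069), against 0.0041 for all tested genes (quartiles -0.13 and 0.15), and the members' median had the opposite sign with library sizes alone (-0.0068), on the log2(FPKM + 1) scale (-0.0060) and without vector library 1 (-0.0088). The median size of the change regardless of sign was 0.06 for members, 0.09 for other genes of at least 50 CPM and 0.14 for all tested genes. In all, 75 of 78 tested members, or 96.2%, lay within 0.2 of 0 on the log2 scale, compared with 84.5% of other genes of at least 50 CPM. Their standard errors were small, with a median of 0.029 against 0.096 for all genes, so that log2 changes of 0.07 passed the threshold. Large subunit genes gave 9 higher and 3 lower of 46 tested, and small subunit genes 7 higher and 2 lower of 32. The groups did not overlap in CPM for 29 members, 21 of them higher and 8 lower in ELAPOR1 cells. That is 37.2% of tested members, where 33.8% of all tested genes showed no overlap. Of the 21 called members, 2 had overlapping groups, RPL37A and RPS18.

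**Figure D2:**
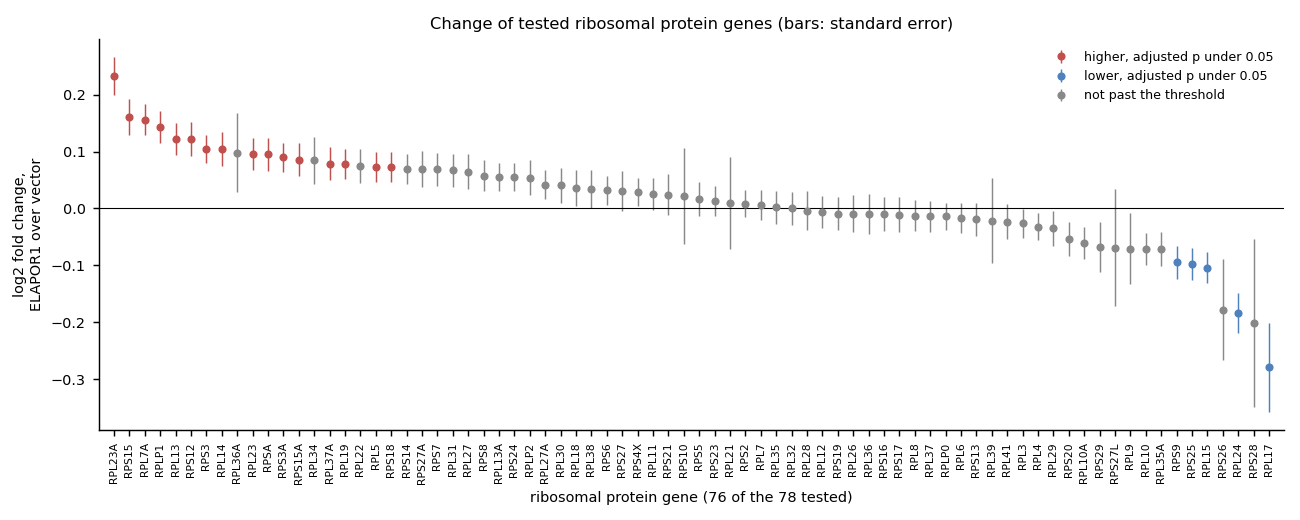
Log2 fold change of 76 of the 78 tested ribosomal protein genes, ELAPOR1 over vector, in order of size (points; bars are standard errors from edgeR; colours give calls at an adjusted p under 0.05). The 16 higher genes run from 0.07 to 0.23 and the 5 lower genes from -0.28 to -0.09, with wide bars for low-count genes such as RPS28 and RPS27L.

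Among proteins around the tunnel through which the new chain leaves the large subunit, RPL23A was higher and RPL17 was lower in ELAPOR1 cells. RPL23A, which sits at the tunnel's mouth where targeting factors dock (ENSG00000198242, GRCh38 chromosome 17, 28719985 to 28724359, plus strand), had 374, 354 and 356 CPM in ELAPOR1 cells, against 296, 304 and 323 CPM in vector cells. All ELAPOR1 libraries lay above all vector libraries, and its log2 fold change of 0.23 ± 0.033 (SE), or 17.5%, was the largest rise of the family (edgeR adjusted p = 5.06e-08). RPL17, which lines the tunnel (ENSG00000265681, chromosome 18, 49488453 to 49492508, minus strand), had 27.7, 27.0 and 26.2 CPM in ELAPOR1 cells, against 32.4, 33.6 and 32.1 CPM in vector cells. The groups were apart, and it fell by 17.6% (log2 fold change -0.28 ± 0.078, edgeR adjusted p = 0.0053). RPL17 is uncertain as a measure of its gene: the readthrough gene RPL17-C18orf32 covers all of its coding bases, and its level per length is among the lowest of the family. RPL19, near the same exit, was also higher, with a log2 fold change of 0.08. RPL4, RPL26, RPL31, RPL35 and RPL39 of the same group passed no threshold, at values between -0.03 and 0.07. Thus 2 of these 8 genes were higher and 1 was lower, where 10.0% of all tested genes were higher and 11.4% lower.

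Of the stalk, the flexible arm of the large subunit that brings in elongation factors, only RPLP1 was called. RPLP1 (ENSG00000137818, chromosome 15, 69452814 to 69456205, plus strand) had 663, 660 and 669 CPM in ELAPOR1 cells, against 594, 596 and 615 CPM in vector cells. The ELAPOR1 libraries lay together above the vector libraries, a rise of 10.4% (log2 fold change 0.14 ± 0.028, edgeR adjusted p = 5.99e-05). Its dimer partner RPLP2 stood at 0.05 (adjusted p = 0.22 by edgeR), the scaffold RPLP0 at -0.01 and RPL12, which joins the stalk base, at -0.01. The difference between RPLP1 and these partners was not tested.

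RPL7A and RPL24 were the next to move among large subunit genes. RPL7A (ENSG00000148303, chromosome 9, 133348218 to 133351426, plus strand), had 1154, 1159 and 1177 CPM in ELAPOR1 cells, against 995, 1087 and 1050 CPM in vector cells. All 3 ELAPOR1 libraries exceeded the highest vector library, with a rise of 11.4% (log2 fold change 0.16 ± 0.027, edgeR adjusted p = 4.56e-06). RPL24, part of a bridge to the small subunit (ENSG00000114391, chromosome 3, 101681091 to 101686718, minus strand), had 327, 302 and 293 CPM in ELAPOR1 cells, against 331, 362 and 352 CPM in vector cells. The highest ELAPOR1 library lay just under the lowest vector library, and RPL24 fell by 12.0% (log2 fold change -0.18 ± 0.035, edgeR adjusted p = 2.65e-05). At RefSeq's annotated start RPL24 has an unbroken run of 10 C and T bases, as shown above, and the start of its mRNA in these cells was not measured.

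RPL15, a core protein of the large subunit (ENSG00000174748, chromosome 3, 23916591 to 23924374, plus strand), had 826, 805 and 837 CPM in ELAPOR1 cells, against 854, 902 and 896 CPM in vector cells. The groups did not overlap, and it fell by 6.95% (log2 fold change -0.10 ± 0.028, edgeR adjusted p = 0.0030). The remaining higher genes of the large subunit were RPL13 and RPL14 with log2 fold changes of 0.12 and 0.10, RPL23 with 0.10, RPL37A with 0.08 and RPL5 with 0.07. RPL5, RPL11 and RPL23 bind the ubiquitin ligase MDM2 when ribosome assembly is disturbed and so restrain p53 breakdown. Of these 3, RPL23 (edgeR adjusted p = 0.0085) and RPL5 (0.042) were higher and RPL11 stood at 0.03 (0.60). Of all tested genes 10.0% were higher, and of tested members 20.5%. Any bearing on p53 was not tested. RPL5 lost its call in 9 of 17 alternative analyses, 5 of them left-out libraries, and RPL23 in 4.

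In the small subunit, RPS15 rose most. RPS15, a protein of the head close to the site where codons are read (ENSG00000115268, chromosome 19, 1438358 to 1440495, plus strand), had 431, 441 and 442 CPM in ELAPOR1 cells, against 370, 399 and 406 CPM in vector cells. The groups were apart, with vector library 1 the lowest, and RPS15 rose by 11.8% (log2 fold change 0.16 ± 0.032, edgeR adjusted p = 5.60e-05). Of 12 head proteins, RPS15, RPS12 (0.12) and RPS18 (0.07) were higher, where 10.0% of all tested genes were. RPS25, a head protein known for its part in translation from viral internal entry sites, was lower. RPS25 had 745, 727 and 773 CPM in ELAPOR1 cells, against 790, 815 and 798 CPM in vector cells, without overlap (log2 fold change -0.10 ± 0.028, edgeR adjusted p = 0.0065).

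The channel by which mRNA enters is formed by RPS2, RPS3 and RPS9, and these moved differently. RPS3 had 1977, 1891 and 1968 CPM in ELAPOR1 cells, against 1766, 1864 and 1796 CPM in vector cells, with all ELAPOR1 libraries the higher (log2 fold change 0.11 ± 0.025, edgeR adjusted p = 7.78e-04). RPS9 had 469, 460 and 478 CPM in ELAPOR1 cells, against 502, 501 and 499 CPM in vector cells, with all ELAPOR1 libraries the lower (log2 fold change -0.09 ± 0.030, edgeR adjusted p = 0.014). RPS2, at 0.01 the gene with the highest FPKM of the family, passed no threshold. At the mRNA exit, RPSA (0.10) and RPS3A (0.09) were higher, and RPS14, RPS21, RPS26 and RPS28 were not called. RPSA lost its call in 4 of 17 alternatives, RPS3A in 3 and RPS3 in 2. Of all tested genes 10.0% were higher and 11.4% lower. RPS15A, also of the small subunit, was higher at 0.09. RPS26, which contacts mRNA upstream of the start codon, had 20.9, 25.3 and 23.1 CPM in ELAPOR1 cells, against 23.8, 28.3 and 26.5 CPM in vector cells. Its groups overlapped, and its log2 fold change of -0.18 ± 0.088 did not pass (edgeR adjusted p = 0.15). RPS25 and RPS9 lost their calls without ELAPOR1 library 2, with edgeR adjusted p of 0.084 and 0.094.

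**Figure D3:**
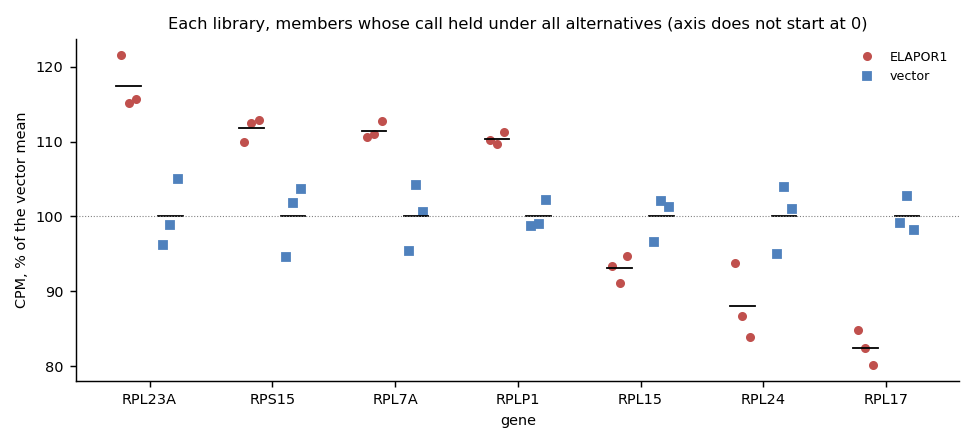
CPM of each library as a percent of the vector mean for the 7 members whose call held under all 17 alternative analyses (red circles ELAPOR1, blue squares vector, in library order 1 to 3; black lines are means; the axis does not start at 0). RPL23A, RPS15, RPL7A and RPLP1 lie above the vector libraries, and RPL15, RPL24 and RPL17 below them.

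Across the alternative analyses these 7 genes kept their calls, and the other 14 lost theirs in at least 1. RPL5 and RPS18 lost theirs in 9 of 17, RPL37A and RPS15A in 8, and RPL19 in 7. None of the 21 changed direction in any of the 17 alternatives. A list of 18 members linked to Diamond-Blackfan anemia, an inherited failure of red cell production, held 1 higher (RPL5) and 1 lower gene (RPL15). The list need not be complete, and RPS15A, which was higher, was not on it. Of all tested genes 10.0% were higher and 11.4% lower. The list's median log2 fold change was 0.012, beside medians of 0.015 for all tested members and 0.0041 for all tested genes.

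The levels of the members per length spanned a wide range. In FPKM, which divides by the exonic length given in the table, RPS2 averaged 952 ± 3.39 in ELAPOR1 cells and 961 ± 18.6 in vector cells (SD, n = 3 each). RPS12, RPS18 and RPS6 were also among the 5 highest, at 915, 681 and 652 FPKM in ELAPOR1 cells and 854, 657 and 647 FPKM in vector cells by their means. At the other end RPS27L, a paralog of RPS27, averaged 1.89 ± 0.251 FPKM in ELAPOR1 cells and 2.01 ± 0.101 FPKM in vector cells. RPS28 followed with 3.49 ± 0.563 FPKM in ELAPOR1 cells and 4.06 ± 0.269 FPKM in vector cells. RPL36A, RPL9 and RPS29 completed the 5 lowest, at 9.81, 9.42 and 11.0 FPKM in ELAPOR1 cells and 9.29, 10.0 and 11.7 FPKM in vector cells.

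**Figure D4:**
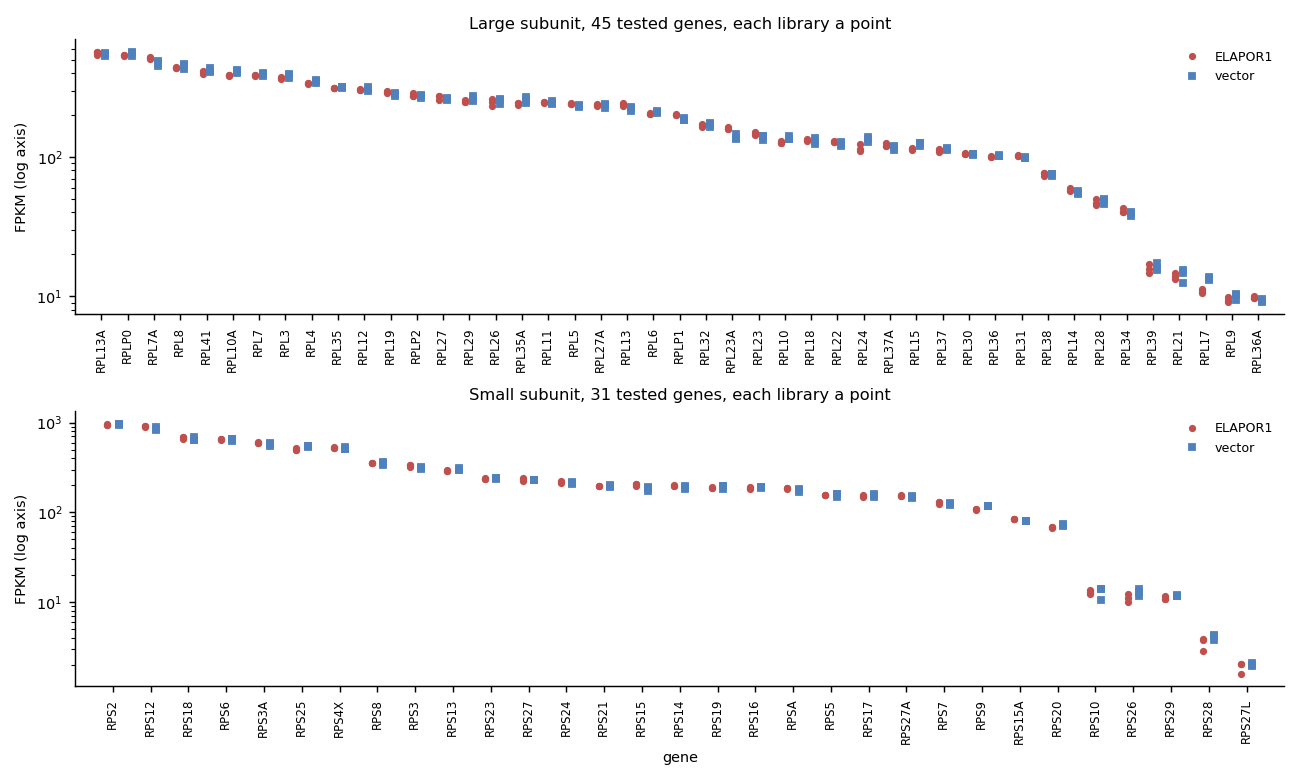
FPKM of 45 large and 31 small subunit genes that were tested, on log axes, in order of their mean (each point a library, red circles ELAPOR1 on the left of each pair, blue squares vector on the right). The points of the 2 groups nearly coincide, and RPL39, RPL21, RPL17, RPL9, RPL36A, RPS10, RPS26, RPS29, RPS28 and RPS27L stand at 20 FPKM or less.

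The exonic length in the table joins all annotated exons of a gene, with a median of 3240 bases for tested members, whereas their median coding length in GENCODE 29 is 454.5 bases. Per kilobase of coding sequence, the tested members in vector cells ranged from 41.3 CPM (RPS28) to 6160 CPM (RPL41), with a median of 1308, and 61 of 78 lay within 2-fold of that median. To see how far copies elsewhere could take reads, each coding sequence was split into overlapping words of 50 bases, and the words found in no GENCODE transcript of a gene at another place were counted. Such words made up 10% or less of 13 tested members, whose median level in vector cells was 115 CPM per coding kilobase, against 1357 for the other 65. Below 250 CPM per coding kilobase stood 8 of these 13 genes (RPS28, RPL17, RPS10, RPL21, RPS26, RPL9, RPL36A and RPL39), and of the other 65 only the paralog RPS27L, at 66.8 in ELAPOR1 cells and 70.2 in vector cells. RPL41, RPS3A, RPL7 and RPS27 also had few such words, at levels of 937 to 6160. Above the 10% bound, the called members RPL23A, RPL15 and RPL7A had 11.9%, 19.4% and 26.0% of such words. How far shared sequence touches their counts was not tested. Over all 78 genes the rank correlation (Spearman) of the level with the share of such words was 0.24, a description over genes that share libraries. For 3 of the 8, readthrough genes on the same strand cover coding bases as well, 100% in RPL17, 92.1% in RPS10 and 94.3% in RPL36A. How reads with several matches were counted is not stated in the labels or headers, so the levels of these 8 genes are uncertain.

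**Figure D5:**
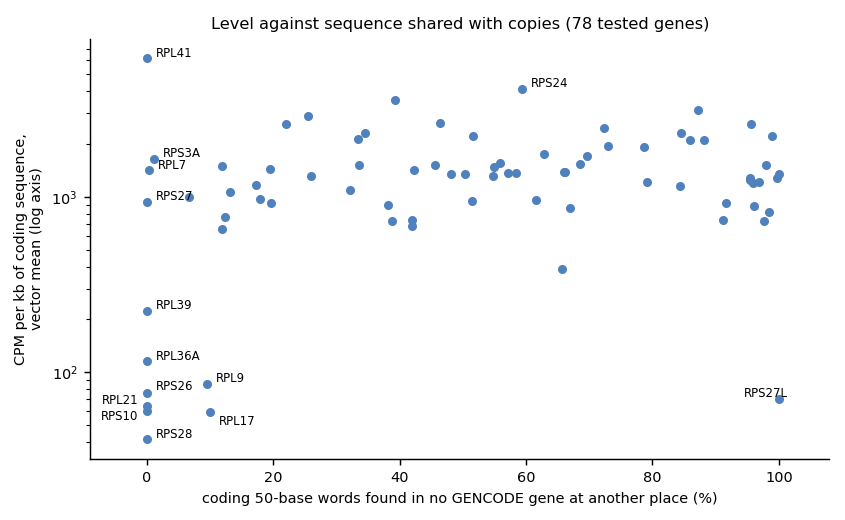
Level in vector cells (mean CPM per kilobase of coding sequence, log axis) against the share of 50-base coding words found in no GENCODE gene at another place, for 78 tested genes. At 10% or less, 8 of 13 genes lie under 250, against 1 of 65 genes, RPS27L, above it.

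For 4 members the pseudogene rows held more counts than the gene itself. Processed pseudogenes are reinserted copies of mRNAs, and the table holds 1283 rows named as pseudogenes of 77 members, of which 387 had a count and 77 were tested. Pseudogenes held 96.2% of the joint counts of RPS28 and its copies, 92.3% for RPL39, 57.6% for RPL41 and 53.0% for RPL21, and under 5% for 56 of the 77 members. RPS28P7 on chromosome 11 had 3322, 3873 and 3730 counts in ELAPOR1 libraries and 3762, 4006 and 3370 counts in vector libraries, which overlapped (log2 fold change 0.06, edgeR adjusted p = 0.25). RPS28 alone had a log2 fold change of -0.20 (edgeR adjusted p = 0.37) and, with its pseudogenes' counts added, 0.05 (0.35), a change of sign. Of the 77 tested pseudogene rows 2 were higher and 1 lower, where 10.0% of all tested genes were higher and 11.4% lower. The lower one, RPL7AP6 on chromosome 14, had 981, 1131 and 1076 counts in ELAPOR1 libraries and 1373, 1093 and 1461 counts in vector libraries, with overlap in counts (log2 fold change -0.23 ± 0.075, edgeR adjusted p = 0.021), opposite to RPL7A. RPL23AP42 on chromosome 3 stood at -0.03 (edgeR adjusted p = 0.82), where RPL23A was at 0.23. Pseudogenes held 17.6% of the joint counts of RPL23A and its copies. With pseudogene counts added to their parents, 17 members were higher and 5 lower.

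Genes that overlap members were also looked at, since neither labels nor headers say whether reads were counted by strand. RPL23A, with 36609 counts over all libraries, overlaps TLCD1 with 348 and an unnamed gene with 498 counts on the other strand. RPS3A, with 147224 counts, overlaps SH3D19 with 13435 counts, which was lower (log2 fold change -0.16, edgeR adjusted p = 0.0025) while RPS3A was higher. Introns of 28 of the 78 tested members hold 60 annotated small nucleolar RNA genes. Of the 16 higher members 9 host at least 1, and of the only 5 lower members 1 does. A link between hosting and direction was not tested.

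3 members were too low to test. RPL3L, a paralog of RPL3 found in striated muscle, had 7, 7 and 22 counts in ELAPOR1 libraries and 12, 3 and 7 counts in vector libraries. RPL10L and RPL39L, paralogs known from testis, had 0 counts in every library, which allows up to 0.183 CPM in the smallest library by counting error alone.

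Ribosomal proteins whose symbols fall outside the rule went lower or passed no threshold. Of 7 tested, RPL36AL, a paralog of RPL36A, had 91.6, 105 and 102 CPM in ELAPOR1 cells, against 117, 116 and 109 CPM in vector cells. Its groups did not overlap (log2 fold change -0.20 ± 0.047, edgeR adjusted p = 7.50e-04). FAU, the precursor of the small subunit protein eS30, stood at -0.11 (edgeR adjusted p = 0.030) and RPL7L1, a nucleolar paralog of RPL7, at -0.11 (0.010). FAU lost its call by DESeq2 and in both FPKM fits, and both genes lost theirs without ELAPOR1 library 2 and without vector library 3. RACK1 at -0.04, RPL26L1 at -0.02 and RPL22L1 at -0.21 (0.078) were not called. Between 1 and 4 of these genes were lower and none was higher in any of the 17 alternatives. In the main fit 3 of the 7 were lower, where 11.4% of all tested genes were.

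Among genes that make or serve ribosomes, those of ribosome assembly were mostly lower where they were called, with 10 lower and 1 higher of 38, where 11.4% of all tested genes were lower and 10.0% higher. Their median log2 fold change was -0.027, and without vector library 2 it was 0.0051, of the opposite sign. The 4649 genes of at least 50 mean CPM outside the members had a median of -0.020. Of those genes 36.0% were called in either direction. SBDS, which helps release a joining block from the new large subunit, had 131, 126 and 132 CPM in ELAPOR1 cells, against 153, 148 and 151 CPM in vector cells (log2 fold change -0.22 ± 0.040, edgeR adjusted p = 2.18e-05), without overlap. NOP10 (-0.21) and NHP2 (-0.20), both part of the complex that converts uridines of ribosomal RNA to pseudouridine, fell as well, and the nucleolar factor EBNA1BP2 was the 1 that was higher, at 0.26. The count of lower assembly genes ranged from 6, without vector library 2, to 12. Without vector library 1 it was 9.

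Other mRNAs known to carry TOP tracts were listed, 15 of translation factors plus TPT1 and the RNA-binding protein HNRNPA1. Of these 17 genes 4 were higher and 0 lower, with a median log2 fold change of 0.045. Over all tested genes 10.0% were higher and 11.4% lower. Among other genes of at least 50 mean CPM 36.0% were called in either direction. EEF1A1, which carries aminoacyl-tRNA to the ribosome, had 8453, 8253 and 8370 CPM in ELAPOR1 cells, against 7380, 7891 and 8014 CPM in vector cells, without overlap (log2 fold change 0.11 ± 0.021, edgeR adjusted p = 7.51e-05). EIF3K (0.20), EEF1B2 (0.12) and EIF4B (0.08) were the other higher ones, and EIF4B lost its call in 6 of 17 alternatives. At an unadjusted p under 0.05 edgeR had 5 higher and 0 lower genes of the list, DESeq2 gave 4 higher and 0 lower by adjusted p, and on the log2(FPKM + 1) scale 1 was higher. Long noncoding hosts of small nucleolar RNAs, which also start with TOP tracts, gave 1 higher and 2 lower of 10: SNHG8 at 0.24, ZFAS1 at -0.25 and SNHG1 at -0.24. SNHG8 lost its call by DESeq2, in both FPKM fits, without ELAPOR1 library 3 and without vector library 1. ZFAS1 had 229, 232 and 242 CPM in ELAPOR1 cells, against 273, 286 and 276 CPM in vector cells, well apart (edgeR adjusted p = 2.27e-08).

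Of 15 genes of the RNA polymerase I machinery, which transcribes ribosomal RNA, the catalytic subunit POLR1A was higher (0.19, edgeR adjusted p = 4.99e-04) and POLR1D (-0.20) and TAF1B (-0.23) were lower. TAF1B lost its call in 7 of 17 alternatives, DESeq2 and 5 left-out libraries among them, and POLR1A in both FPKM fits. Of 15 regulators of growth and ribosome output, MYC and its partner MAX were higher, and the MYC antagonist MXD1 and the translation repressor EIF4EBP2 lower. MYC had 387, 382 and 374 CPM in ELAPOR1 cells, against 343, 354 and 351 CPM in vector cells, with no overlap (log2 fold change 0.13 ± 0.031, edgeR adjusted p = 0.0016). MAX stood at 0.25, MXD1 at -0.21 and EIF4EBP2 at -0.18. Beside these lists, 10.0% of all tested genes were higher and 11.4% lower. Of 10 factors that meet the new protein chain, HSPA8, the constitutive HSP70 chaperone, alone was called, at 1738, 1725 and 1767 CPM in ELAPOR1 cells, against 2003, 2083 and 2094 CPM in vector cells (log2 fold change -0.24 ± 0.024, edgeR adjusted p = 5.67e-13).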

How the data were processed

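Poly(A) RNA of 3 ELAPOR1 and 3 vector libraries of SW620 cells was analysed. The deposited table gives read counts per gene, not normalized, and FPKM values made by the authors. Dividing counts by exonic length and library total gave all 96018 FPKM values of tested genes to within 0.01. The submitters' processing notes name the build GRCh38 and the tools HISAT2 2.0.1, cutadapt 1.9.1, DESeq2 and HTSeq 0.6.1. A second deposited table holds the authors' log2 fold changes and p-values. Columns were matched by name, with K read as KIAA1324, the older symbol of ELAPOR1.

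The test was edgeR's two-sided quasi-likelihood test (edgeR 4.0.16, R 4.3.3) of ELAPOR1 over vector on the 16003 genes kept by filterByExpr, scaled with TMM. A gene was called where its p, adjusted by Benjamini-Hochberg over all of them, was under 0.05. In every sentence an adjusted p comes from this fit unless another tool is named. The standard error is the size of the log2 fold change divided by the root of the F statistic. Within groups, pairs of libraries had a mean chi-square per gene of 2.43 to 3.62, above sampling noise. Each library counted as 1 sample, though this spread cannot show whether the libraries came from separate cultures. In simulated ELAPOR1 against vector data with 15526 genes tested, edgeR recovered 61.2% of 1.25-fold, 92.5% of 1.5-fold and 97.0% of 2-fold changes, with 3 false calls among 170. Smaller changes, such as most of those reported, were not simulated. The counts were drawn from vector means, with a spread fitted as a trend over genes and 200 genes changed. In the real data 3427 genes were called, so the simulated false calls do not give the rate among them.

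Members, surrounding lists and naming rule were chosen with earlier results of these data known. The rule names every called member, the 5 highest and 5 lowest members by log2 fold change and by FPKM, untested members, paralogs outside the symbol rule, and up to 4 called genes of each list. Other members are named as partners of these. A few genes are not reported here. Lists are described by counts and medians. Coding words come from GENCODE 29 and promoters from RefSeq GRCh38.p14. The alternatives used no filter, at least 10 counts in a group, size factors by RLE, library sizes alone, DESeq2 1.42.0, a replicate block, limma 3.58.1 on log2(FPKM + 1) or log2(FPKM + 0.1), a threshold of 0.01, ELAPOR1 left out, TMM without members, pseudogene counts added, and each library left out.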

Additional observations from a re-analysis of the deposited data

How the results depend on the processing

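Of the 21 called members, 7 kept their calls under all 17 alternatives, and 11 lost theirs when some library was left out. Leaving out 1 library gave 8 to 22 higher members, 3 to 10 lower members, 2723 to 3187 called genes in all, a members' median log2 fold change between -0.0088 (without vector library 1) and 0.034, and a difference in summed share between -0.051 and 0.086 percentage points. Library sizes alone gave 8 lower members. Limma called 2133 genes on log2(FPKM + 1) and 2098 on log2(FPKM + 0.1), with 4 higher members on both, and 34.1% of its calls were higher against 46.9% in edgeR. At an adjusted p under 0.01 edgeR called 2245 genes and 10 higher members. Without ELAPOR1's own counts the difference in summed share was 0.14 percentage points. Adding pseudogene counts turned RPS28 to a log2 fold change of 0.052. The cause of these shifts was not tested, and leaving out a library changes both the number and the choice of libraries. Same-numbered libraries did not deviate together (correlations -0.016, -0.026 and -0.016), and with the replicate block 18 members were higher and 5 lower, with 3361 genes called in all. Counts in the surrounding lists under these settings were added after seeing the data. For low members, depth limits precision: standard errors were 0.023 to 0.044 for the 69 members with at least 1000 counts in every library and reached 0.15 in RPS28.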

Other observations

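The ribosomes of mitochondria are built from another set of nuclear genes, and these were also mixed. ELAPOR1 cells had 5 higher and 9 lower of 77 tested mitochondrial ribosomal protein genes, with a median log2 fold change of -0.01. Among all tested genes 10.0% were higher and 11.4% lower. MRPS27 had 138, 136 and 133 CPM in ELAPOR1 cells, against 113, 110 and 117 CPM in vector cells, without overlap (0.26 ± 0.042, edgeR adjusted p = 1.12e-06). MRPL38 (0.28) and MRPS9 (0.23) were also higher, and MRPL41 was lower at -0.24 (edgeR adjusted p = 0.049). MRPL38 lost its call without vector library 3, and MRPL41 lost its call in 8 of 17 alternatives, among them DESeq2, RLE factors, no filter, the replicate block and 4 left-out libraries. By DESeq2 4 were higher and 1 lower. The 13 mRNAs encoded in mitochondrial DNA took 5.48%, 5.59% and 5.52% of counts in ELAPOR1 cells and 5.28%, 5.38% and 5.30% in vector cells, without overlap.

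The authors' deposited table called 16 members higher and 6 lower, and 19 of these 22 calls were shared with the 21 made by edgeR. In the authors' deposited table RPL10 (adjusted p = 0.035), RPL22 (0.045) and RPL31 (0.044) passed where they did not by edgeR, and RPL37A (0.054) and RPS18 (0.054) did not pass.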
